A study of Rattus norvegicus with 12 samples.

Results

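The integrated stress response genes followed here are Ddit3, Atf4, Atf3, Atf5, Trib3, Asns, Chac1, Ppp1r15a, Sesn2 and Ddit4. They were chosen by name, and every probe set whose only gene symbol is one of these 10 was kept. All 10 genes were found, with 13 of the 31099 probe sets on the array and among 14218 genes that have a probe set with a single symbol. Trib3 has 3 probe sets, Sesn2 has 2, and each of the other 8 genes has 1. Expression was measured in CRI-G1, a rat insulin-secreting islet tumour cell line, on 12 Affymetrix Rat 230 2.0 arrays. The rotenone-resistant line, CRI-G1-RR (RR cells), is the original clone, and the rotenone-sensitive line, CRI-G1-RS (RS cells), is a single subclone that was frozen as a separate line. Rotenone is an inhibitor of mitochondrial complex I, but neither line had received it or any other treatment before RNA was taken, so the comparison is between the unstimulated lines. There are 6 arrays of each line, 1 for each of 6 passages, and with 1 line of each kind a difference between RR and RS cells cannot be told apart from a difference between any 2 clones. The p-values measure the spread between these passages.

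In the integrated stress response, kinases that sense unfolded protein in the endoplasmic reticulum, amino acid shortage, haem shortage or mitochondrial trouble phosphorylate the translation factor eIF2. General protein synthesis falls, while the mRNA of the transcription factor Atf4 is translated more. Atf4 and its partners then switch on genes for amino acid supply and, when stress persists, Ddit3 (Chop) and its targets, which favour cell death. Pancreatic beta cells, with their high load of secretory protein, are known to rely on this pathway. Because Atf4 is controlled largely at translation, its mRNA level need not follow its activity, and arrays report mRNA only.

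The values are linear signals in arbitrary units, and means ± SD are of the deposited signals. A log2 difference is RS minus RR after quantile normalization of log2(signal + 16), a pseudocount that understates the changes of dim probe sets. A probe set was called where the limma p, adjusted over all 31099 probe sets, was under 0.05. Arrays correlated at 0.979 to 0.987 among RR cells, at 0.978 to 0.987 among RS cells and at 0.952 to 0.965 between the lines. Replicate 2 of RS cells stands apart in RNA integrity: its ratio of 3' to 5' signal for beta-actin was 8.28, where the other 11 arrays lay between 2.75 and 3.79. For Ddit3, Atf5, the brighter Sesn2 probe set and the pairs of members, results are given with and without this array. All 8 measured islet endocrine markers had mean signals of at least 200, with a summed signal of 23833 to 28230 in RR and 26315 to 30202 in RS cells. Of these 8, Ins2, Pdx1, Chga and Neurod1 were called higher in RS cells (log2 differences of 1.30, 1.09, 0.25 and 0.90), and their part in the results on stress genes was not tested. Glucagon (Gcg), a hormone of alpha cells, was also bright, with 7329 ± 362 in RR and 6589 ± 576 in RS cells (SD, n = 6 each). It was 1 of 4 islet hormones of other cells that were looked at, with Sst, Ppy and Ghrl. Of these 4, 3 had mean signals under 50, and 1 was called higher in RS cells. All 6 acinar markers had mean signals under 50. Summed fibroblast markers were 230 to 299.5 in RR and 307 to 390.2 in RS cells, and among those 6 genes only Pdgfra was called (log2 difference 0.74, adjusted p = 4.85e-04).

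Promoters come first, because the Atf4 response is read from a short element. Atf4 bound to a C/EBP factor is known to bind the C/EBP-Atf element, spelled TGATGNAA here, in many of its target genes. RefSeq promoters on GRCr8, from 250 bases before to 50 after the annotated start, were at hand for 9 of the 10 members. Among all 33469 such windows, 3.98% hold TGATGNAA on either strand. It was found in 2 of the 9 members, Trib3 and Chac1, in both cases in the reverse orientation (TTNCATCA). The endoplasmic reticulum stress elements ERSE and ERSE-II, to which the Atf6 and Xbp1 branches answer, were searched too. They are in 0.0657% and 0.0508% of all windows, and neither was found in any of the 9. A match describes these letters in this window and does not show that a factor binds there. The 250 bases before the start follow for Ddit3 and Trib3, members with a probe set called lower, 5′ to 3′ on the gene's strand and in lower case with the element in capitals.
Ddit3, chr7:65001445-65001694, plus strand: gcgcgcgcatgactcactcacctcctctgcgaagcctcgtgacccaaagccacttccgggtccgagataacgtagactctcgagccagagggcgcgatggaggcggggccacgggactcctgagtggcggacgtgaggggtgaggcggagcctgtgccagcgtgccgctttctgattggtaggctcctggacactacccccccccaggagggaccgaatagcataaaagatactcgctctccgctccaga
Trib3, chr3:161275534-161275783, minus strand: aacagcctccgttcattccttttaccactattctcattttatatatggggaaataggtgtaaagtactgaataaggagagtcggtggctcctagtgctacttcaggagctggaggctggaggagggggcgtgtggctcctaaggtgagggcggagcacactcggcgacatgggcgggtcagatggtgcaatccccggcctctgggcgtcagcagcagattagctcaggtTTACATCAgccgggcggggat
The element of Trib3 begins 21 bases before the annotated start, whereas that of Chac1 begins 167 bases before it. In Ddit3 the letters were not found in this window. For Asns and Atf5 the window lies inside the annotated span of the gene, at an internal start and not at the outermost one, so the absence of the letters there says nothing of the other starts. The Chac1 element is shown with 10 bases on each side.
Chac1, chr3:126795954-126795981, plus strand: ttctccgccgTTGCATCActcctgctag

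Across the 13 probe sets, 5 were called, 1 higher and 4 lower in RS cells. The higher one was that of Asns, and the lower ones were those of Ddit3, Atf5 and 2 of the 3 for Trib3. By each gene's brightest probe set, 1 of the 10 genes was higher, 2 were lower and 7 were not called. On the whole array 16.3% of probe sets were called higher and 15.4% lower. By brightest probe set, 21.0% of genes were called higher and 18.3% lower. By gene, the share that was lower is thus near that of the whole array and the share that was higher is below it, and 2 of the 4 lower probe sets are of the same gene. The median size of the log2 difference over all genes, in either direction, was 0.21. The arrays of the lines did not overlap for 3 member probe sets, those of Ddit3, Atf5 and Asns, against 20.3% of all probe sets.

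**Figure D1:**
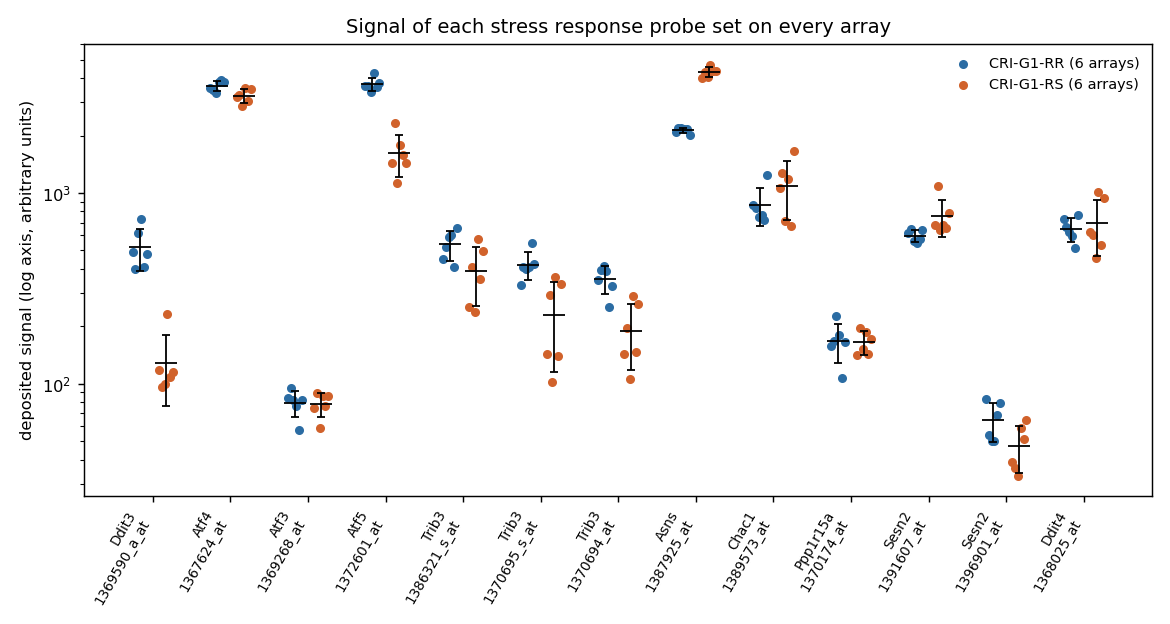
Deposited signal (log axis, arbitrary units) of the 13 probe sets on the 6 RR and 6 RS arrays, 1 point per array, with mean and SD in black. The lines separate without overlap for Ddit3, Atf5 and Asns and overlap for the other 10 probe sets.

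Ddit3, or Chop, is the C/EBP family factor of the late, death-promoting stress response. On its 1 probe set the signal was 398 at the lowest, 487 at the median and 727 at the highest among RR arrays, and 95.8, 112 and 231 among RS arrays. Every RS array was thus below every RR array. The mean fell from 520.0 ± 128 to 128 ± 51.3 (SD, n = 6 each), a log2 difference of -1.93 (SE 0.20, adjusted p = 8.06e-06). The exact two-sided permutation p was 0.00216, the smallest that 6 arrays against 6 allow. The highest RS signal, 231 in replicate 4, stood far from the next, 118, and without that array the log2 difference was -2.10. Without replicate 2 of RS cells it was -1.86. In such bulk RNA, fewer cells that express a gene and less of its mRNA per cell cannot be told apart.

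Atf4, the factor at the centre of the response, showed no such gap. Its signal ranged from 3347 through a median of 3666 to 3892 in RR cells and from 2842 through 3213 to 3549 in RS cells. The lines overlapped, and the log2 difference of -0.12 (95% confidence interval -0.26 to 0.01, adjusted p = 0.169) was not past the threshold. The interval leaves out a change as large as that of Ddit3 in either direction. The size depended on the normalization. It was -0.18 with the deposited scaling alone (limma adjusted p = 0.0702) and -0.20 with centring on the median (limma adjusted p = 0.0713). The exact two-sided permutation p in the main setting, not adjusted, was 0.0368.

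Atf5 is a relative of Atf4 whose translation is controlled in the same way and which is known to aid survival of beta cells under stress. Its signals were 3387, 3634 and 4245 (lowest, median, highest) in RR cells and 1134, 1512 and 2313 in RS cells. All RS arrays lay below all RR arrays. The mean fell from 3709.9 ± 288 to 1613 ± 402 (SD, n = 6 each), a log2 difference of -1.19 (SE 0.14, adjusted p = 2.19e-05). The highest RS signal was that of replicate 2, and without it the difference was -1.29.

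Atf3, an early stress factor that acts as a repressor or activator with its partners, was dim in both lines. Its signal ran from 57.0 to 94.6 in RR cells and from 58.4 to 89.2 in RS cells, nearly the same range. The log2 difference was -0.03 (95% confidence interval -0.26 to 0.19, adjusted p = 0.858).

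Among the targets of Atf4, Asns went the opposite way to Ddit3. Asns, asparagine synthetase, makes asparagine from aspartate and glutamine and is a standard marker of amino acid shortage. The signal was 2023, 2159 and 2200.4 (lowest, median, highest) in RR cells and 3985, 4331 and 4710.4 in RS cells. The lowest RS array thus lay well above the highest RR array. The mean rose from 2135 ± 67.6 to 4297 ± 254 (SD, n = 6 each), which is 2.01-fold, with a log2 difference of 1.06 (SE 0.05, adjusted p = 2.18e-08). The arrays of each line differed little for this gene, with coefficients of variation of 3.17% in RR and 5.92% in RS cells.

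Trib3 encodes a pseudokinase that is induced by Atf4 and Chop, restrains Atf4 activity and inhibits Akt. Its 3 probe sets all had lower means in RS cells but did not give the same call. On 1370694_at the signal was 251, 368 and 413 (lowest, median, highest) in RR cells and 105, 171 and 289 in RS cells, with a log2 difference of -0.91 (SE 0.21, adjusted p = 0.00416). On 1370695_s_at it was 328, 409 and 543 against 102, 217 and 361, with a difference of -0.96 (SE 0.27, adjusted p = 0.0163). On the brightest, 1386321_s_at, it was 409, 554 and 656 against 239, 384 and 573, with a difference of -0.51 (SE 0.21, adjusted p = 0.0787), which is not past the threshold. The lines overlapped on all 3 probe sets. The suffix _s_at marks probes that can match more than 1 transcript. The 1386321_s_at signal spread widely among RS arrays, and without RS replicate 4, its highest RS array, the difference was -0.64 (adjusted p = 0.0241). Without RS replicate 3, its lowest RS array, it was -0.39 (adjusted p = 0.160), and without RS replicate 1 it was -0.41 (adjusted p = 0.162). Leaving out any array other than RS replicate 4 did not bring this probe set past the threshold.

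Chac1, which breaks down glutathione and is a target of Atf4, had signals of 723, 802 and 1240.5 (lowest, median, highest) in RR cells and 668, 1118 and 1661 in RS cells. The lines overlapped. The log2 difference was 0.29 (95% confidence interval -0.17 to 0.75, adjusted p = 0.358). The highest RR signal, in replicate 6, stood away from the next, 863, and the lowest values of RS cells were below all those of RR cells.

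Ppp1r15a (Gadd34) is the stress-induced subunit that brings protein phosphatase 1 to phosphorylated eIF2 and so restores translation. Its signal ran from 108 to 227 in RR cells and from 141 to 196 in RS cells. The RS range lay within the RR range, and the log2 difference was -0.02 (95% confidence interval -0.32 to 0.29, adjusted p = 0.953).

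Sesn2 and Ddit4 (Redd1) both restrain the growth kinase complex mTORC1. For Sesn2, the brighter probe set 1391607_at had signals of 546, 597 and 644 (lowest, median, highest) in RR cells and 642, 679 and 1083 in RS cells, a log2 difference of 0.30 (SE 0.12, adjusted p = 0.0778, exact permutation p = 0.00433). The dim probe set 1396901_at, at 50.2 to 83.7 in RR and 33.0 to 64.7 in RS cells, gave -0.36 (SE 0.16, adjusted p = 0.10). The 2 probe sets therefore differ in sign, neither is called, and no direction is given for Sesn2. The highest signal on 1391607_at was that of RS replicate 2, and without that array the difference was 0.18 (adjusted p = 0.0604). For Ddit4 the signal ran from 514 through a median of 643 to 765 in RR cells and from 457 through 611 to 1017 in RS cells, a log2 difference of 0.04 (95% confidence interval -0.36 to 0.44, adjusted p = 0.90). The RS range of Ddit4 took in the whole RR range.

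**Figure D2:**
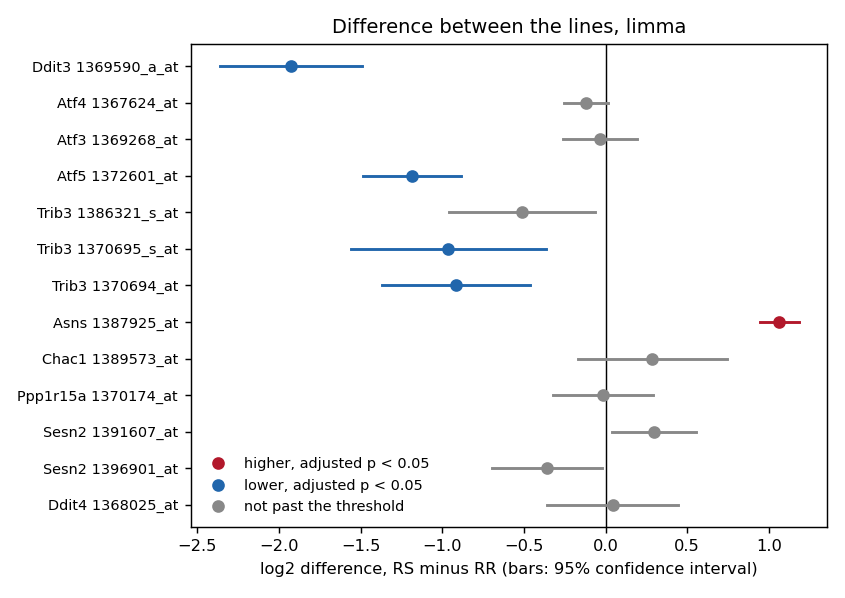
Log2 difference, RS minus RR, of the 13 probe sets with its 95% confidence interval from limma. Ddit3 (-1.93), Atf5 (-1.19) and 2 of 3 Trib3 probe sets were called lower, Asns (1.06) was called higher, and the intervals of Chac1, Ppp1r15a, Ddit4, Atf3 and Atf4 include 0.

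The members also varied from array to array within a line. In RS cells, all 10 genes (by brightest probe set) were below their line's mean in replicate 3, and 9 of 10 were above it in replicate 4. Replicate 6 of RS cells had 7 of 10 above the mean and replicates 1 and 5 had 2 of 10. In RR cells the counts were 6, 6, 4, 6, 2 and 7 for replicates 1 to 6, with replicate 5 the lowest by mean deviation, -0.22 on the log2 scale, against -0.32 in RS replicate 3 and 0.29 in RS replicate 4. The same counts were not made over all genes, so whether they are particular to the members was not tested.

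Over the 45 pairs of members, 40 correlated positively across the 6 RS arrays, with a median Pearson r of 0.59, and 26 across the 6 RR arrays, with a median of 0.10. An r over 0.7 was found for 35.6% of member pairs in RS cells and 6.67% in RR cells. Among all pairs of the 8684 genes whose mean signal reached 100, 8.45% in RS cells and 7.31% in RR cells passed 0.7, and the median was 0.01 and 0.0. Without replicate 2 of RS cells the members' median in RS cells was 0.72 and 44 pairs were positive. Pairs that share a gene and an array are not independent, the difference between the lines was not tested, and this family of pairs was chosen after values had been seen. The highest r was that of Atf4 and Ddit4 in RS cells, with Pearson r 0.97 (exact permutation p = 0.00139) and Spearman rho 1.0 (exact permutation p = 0.00278), and r was 0.96 without the 2 arrays farthest from the median of Atf4. Adjusted over the 90 relations of both lines its p was 0.125 for either measure, and 0.00139 is the smallest p that 6 arrays allow, so no single relation in a family of this size could pass.

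**Figure D3:**
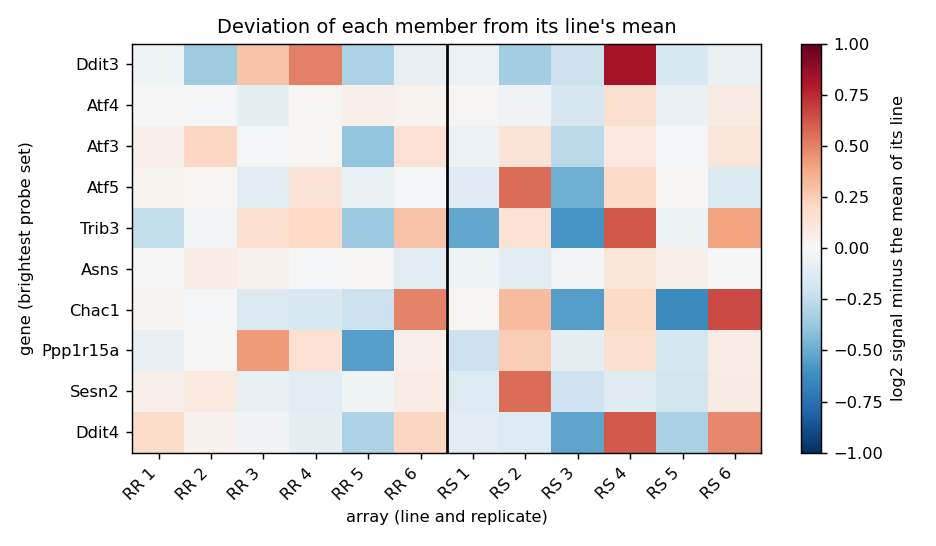
Deviation of each gene from the mean of its own line on every array, in log2 units, red above and blue below the mean. In RS replicate 3 all 10 genes lie below their mean and in RS replicate 4 all but 1 lie above it. On RR arrays, from 2 (replicate 5) to 7 (replicate 6) of the 10 lie above it.

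Ddit3 itself was set against the 9 other members in each line. None of the 18 relations passed after adjustment (lowest adjusted p = 0.35, exact permutation tests). The largest in RS cells was that with Asns, with r 0.81 (exact permutation p = 0.0292, adjusted p = 0.35) and rho 0.60 (exact permutation p = 0.242, adjusted p = 0.87), but without the 2 arrays farthest from the median of Ddit3 r was -0.23, so it rests on those arrays. The relation with Atf4 in RS cells was r 0.75 (exact permutation p = 0.0764, adjusted p = 0.458) and rho 0.77 (exact permutation p = 0.103, adjusted p = 0.617), with r 0.95 without those 2 arrays.

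The genes most like Ddit3 were not members. Likeness was Pearson's r between deviations from the line's own mean over the 12 arrays, among 8683 other genes whose mean signal reached 100, and is a description. The first was Mettl18, a histidine methyltransferase, at 0.94, followed by Scpep1, a serine carboxypeptidase, at 0.93, and Mettl7a at 0.93. The next were Ciao2a, of cytosolic iron-sulphur assembly, at 0.92, Nipsnap3b at 0.92, Vsig10 at 0.89 and Mgst3, a microsomal glutathione transferase, at 0.88. Prxl2a and Tmed4, each at 0.87, and Oasl at 0.86 completed the first 10. Mettl18 and Mgst3 were higher in RS cells, with log2 differences of 0.27 (adjusted p = 0.0127) and 0.58 (adjusted p = 0.00114), so a likeness within the lines went with opposite differences between them. The nearest member was Trib3, at rank 542.

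Genes near Ddit3 were also lower in RS cells. On GRCr8 Ddit3 spans chr7:65001695-65006517. The 50 nearest genes whose mean signal reached 100 span 14.5 Mb, and of these 31 were called lower and 8 higher. Over all genes, dim ones included, 18.3% were lower and 21.0% higher. The median log2 difference of the 50 was -0.62. Of these 50 only Slc16a7, a monocarboxylate transporter, was as low as Ddit3, with -2.06 (adjusted p = 3.61e-09). Mars1, methionyl-tRNA synthetase, overlaps the end of Ddit3 by 62 bases in RefSeq and fell by 0.45 on the log2 scale (adjusted p = 3.45e-04). Ddit3 thus lies among genes that were mostly lower in RS cells, and the part of this stretch in the Ddit3 difference was not tested.

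Around the other called members the medians were smaller in size. Over all members, the 50 nearest genes spanned from 2.64 Mb for Ppp1r15a to 30.4 Mb for Asns. Atf5, at chr1:104432094-104437611, had 50 nearest genes with a median of 0.08, and none was as low as Atf5. Nup62, a nuclear pore gene whose annotated span overlaps that of Atf5 by 2080 bases, was higher in RS cells, with a log2 difference of 0.85 (adjusted p = 3.12e-07). Asns, at chr4:36752061-36769970, had neighbours with a median of 0.05, of which 1 was as high as Asns. The neighbours' medians of the remaining 7 members lay between -0.18 for Chac1 and 0.22 for Ddit4. Trib3, called lower on 2 probe sets, was among these 7 with -0.09. Calls were uneven around several members. Of the 50 nearest genes, 24 were lower and 5 higher around Chac1, and 2 lower and 26 higher around Ddit4. Lower and higher counts were 16 and 6 around Atf4, 15 and 7 around Trib3 and 16 and 13 around Atf3. They were 5 and 15 around Atf5, 8 and 17 around Asns, 7 and 16 around Ppp1r15a and 7 and 8 around Sesn2.

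**Figure D4:**
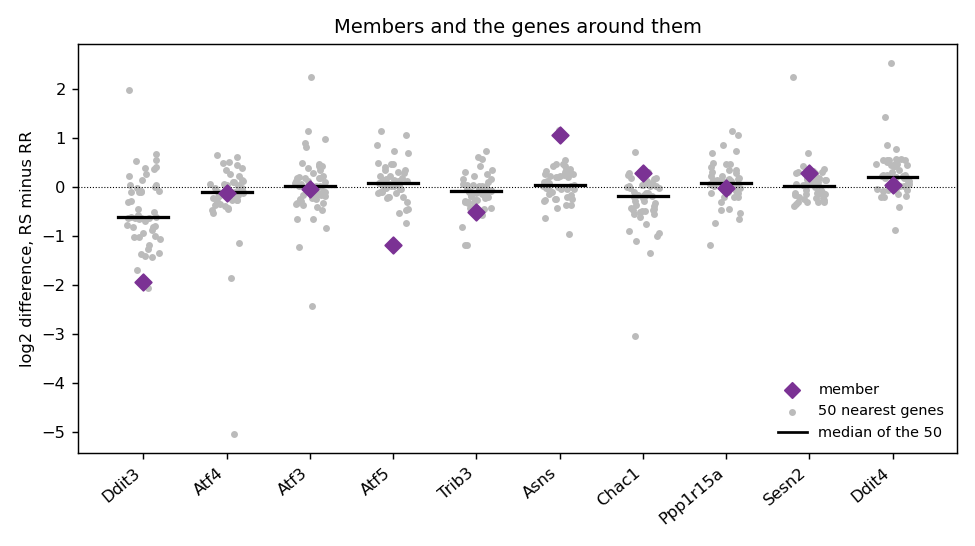
Log2 difference, RS minus RR, of each member (diamond) and of its 50 nearest genes on GRCr8 whose mean signal reached 100 (grey points, median as a black bar). The genes around Ddit3 have a median of -0.62, those around the other 9 members between -0.18 and 0.22, and Atf5 lies below all of its neighbours.

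The rest of the pathway was read from 9 lists by role. They hold 165 measured genes outside the members, each by its brightest probe set, of which 51 (30.9%) were called higher and 34 (20.6%) lower, beside 21.0% and 18.3% of all genes. Their median log2 difference was 0.08 and that of all genes 0.02. The background of all genes includes many dim ones, among which fewer calls are made. With a mean signal of at least 50, 55 of 152 list genes were higher and 38 lower. At that filter 4911 of 18485 probe sets on the array were higher and 4566 lower. No test of a list was run, and some genes stand in 2 lists.

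Upstream of Atf4, 10 of 22 kinases, eIF2 and eIF2B subunits and phosphatase genes were higher and 2 lower, with a median of 0.15. Among the higher were Dnajc3, an inhibitor of eIF2 kinases, with 1.09 (adjusted p = 4.51e-06), and Eif2b5 and Eif2b2, subunits of the exchange factor eIF2B that phosphorylated eIF2 blocks, with 0.87 (adjusted p = 5.23e-06) and 0.45 (adjusted p = 4.71e-05). Ppp1cb, a catalytic subunit of protein phosphatase 1, gave 0.38 (adjusted p = 6.41e-04). The lower ones were Eif2ak3 (Perk), the eIF2 kinase of the endoplasmic reticulum, which went from 583 ± 11.3 to 441 ± 54.0 (SD, n = 6 each; log2 difference -0.41, adjusted p = 0.0011), and Ppp1ca, another catalytic subunit, with -0.28 (adjusted p = 2.92e-04).

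The C/EBP and AP-1 list, which includes partners of Atf4 and Chop, also holds Creb1, Crebzf, Tcf3, Nfe2l1 and Nfe2l2. Of its 20 genes, 6 were lower and 2 higher, with a median of -0.08. The lower ones included Fosl2 at -0.98 (adjusted p = 0.00648), Jun at -0.74 (adjusted p = 2.78e-04), Cebpb at -0.59 (adjusted p = 9.90e-05) and Cebpg at -0.46 (adjusted p = 0.00128). Cebpb went from 1123 ± 45.7 to 749 ± 93.2 (SD, n = 6 each). The higher ones were Maf at 0.81 (adjusted p = 7.41e-04) and, by its brightest probe set, Nfe2l1 at 0.38 (adjusted p = 0.0389). Another probe set of Nfe2l1 was called lower at -0.43 (adjusted p = 0.0026), so no direction is given for that gene. Fosl2, Jun, Cebpb and Cebpg thus went the way of Ddit3 and not that of Asns.

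Amino acid supply was mixed. Of 11 transporters of the Atf4 programme, 5 were higher and 2 lower, with a median of 0.25. Slc7a5, the large neutral amino acid carrier, rose by 0.58 (adjusted p = 5.15e-05), Slc7a1, a cationic amino acid carrier, by 0.57 (adjusted p = 1.18e-05), Slc38a1, a glutamine carrier, by 0.49 (adjusted p = 6.78e-06) and Slc3a2, the heavy chain that Slc7a5 needs, by 0.27 (adjusted p = 0.00684). Slc1a5, another glutamine carrier, went from 299 ± 35.6 to 153 ± 29.5 (SD, n = 6 each), a difference of -0.92 (adjusted p = 4.13e-05), and Slc1a4 gave -0.32 (adjusted p = 0.00494).

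Of 15 genes of serine, glycine, proline and one-carbon synthesis, 2 were higher and 3 lower, with a median of 0.06. Got1, which makes aspartate, a substrate of Asns, rose from 204 ± 23.6 to 489 ± 43.3 (SD, n = 6 each; log2 difference 1.19, adjusted p = 2.76e-07), and Psat1, of serine synthesis, gave 0.50 (adjusted p = 0.0016). The lower ones were Cbs, of cysteine synthesis, at -2.24 (adjusted p = 4.45e-07), Gpt2, an alanine transaminase, at -0.36 (adjusted p = 0.0322), and Shmt2, the mitochondrial serine hydroxymethyltransferase, at -0.28 (adjusted p = 0.0383). Shmt2 is one of the 50 neighbours of Ddit3. In this list only Got1 and Cbs differed by more than 1 on the log2 scale.

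The 20 measured genes of the tRNA synthetase list, with the tRNA exporter Xpot among them, divided into 8 higher and 4 lower, with a median of 0.14. Nars1, for asparagine, rose by 0.64 (adjusted p = 2.71e-05), Sars1, for serine, by 0.52 (adjusted p = 5.72e-05), Iars1, for isoleucine, by 0.41 (adjusted p = 0.00158) and Rars1, for arginine, by 0.36 (adjusted p = 2.68e-04). Lower were Xpot at -0.62 (adjusted p = 3.47e-05), Mars1 at -0.45 (adjusted p = 3.45e-04), Tars1, for threonine, at -0.38 (adjusted p = 0.0103) and Farsb, for phenylalanine, at -0.26 (adjusted p = 0.00794). Of these 4, Xpot and Mars1 are among the 50 neighbours of Ddit3 on chromosome 7, and the part of that stretch in their differences was not tested. Asns and Nars1, which make asparagine and load it on its tRNA, were both higher.

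The share of promoters with the C/EBP-Atf letters varied between the lists, beside 3.98% of all windows. It was 7 of 17 for the tRNA synthetases (41.2%), 3 of 9 for the transporters (33.3%) and 3 of 15 for the other targets of Atf4 or Chop (20.0%). It was 2 of 22 for the eIF2 list (9.09%) and 1 of 11 for serine and one-carbon synthesis (9.09%). For the relatives it was 1 of 14 (7.14%) and for the C/EBP and AP-1 list 1 of 16 (6.25%). In the Atf6 and Ire1-Xbp1 list it was 1 of 23 (4.35%), and among the mTORC1 genes 0 of 18. Over the lists, 17 genes other than members hold them, of which 7 were higher, 4 lower and 6 not called, with a median log2 difference of 0.10. So genes with the same letters went in opposite directions. Shown with 10 bases on each side and the element in capitals, 4 that were higher in RS cells come first, and 4 that were lower follow.
Slc7a1, chr12:11664448-11664475, plus strand: ggcgcgcggcTGATGAAAccggctcgga
Slc38a1, chr7:129681526-129681553, minus strand: ggggaaactcTGATGCAAccaaccagtc
Got1, chr1:252330021-252330048, minus strand: actgcattggTTGCATCAtacaagcctc
Iars1, chr17:15193659-15193686, minus strand: actgtcagtaTTGCATCAcctccagacg
Mars1, chr7:65023753-65023780, minus strand: cccgttccggTTGCATCAgcgtgggctc
Tars1, chr2:62114812-62114839, minus strand: tggcgtcccgTTGCATCAgctggttagc
Slc1a4, chr14:98761780-98761807, minus strand: gcctccagcgTTGCATCAtccagccagc
Nupr1, chr1:190645939-190645966, minus strand: aaaggccagaTTGCATCAgacagggctt
The log2 differences in this order were 0.57 for Slc7a1, 0.49 for Slc38a1, 1.19 for Got1, 0.41 for Iars1, -0.45 for Mars1, -0.38 for Tars1, -0.32 for Slc1a4 and -0.91 for Nupr1. The element of Iars1 begins 24 bases and that of Mars1 17 bases before the start.

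Of 21 other measured targets of Atf4 or Chop, 7 were lower and 1 higher, with a median of 0.03. Gdf15, a secreted stress hormone that is induced by Chop and Atf4, fell from 305 ± 56.0 to 57.9 ± 16.6 (SD, n = 6 each), a log2 difference of -2.15 (adjusted p = 3.24e-07). Nupr1, a chromatin factor of the stress response, gave -0.91 (adjusted p = 3.23e-04) and Wipi1, of autophagosome formation, -0.73 (adjusted p = 1.56e-04). Nfe2l2 (Nrf2), the antioxidant factor, gave -0.40 (adjusted p = 8.25e-04). The study's own array values also gave a modest, significant decrease of Nfe2l2 mRNA, whereas its qRT-PCR found no statistically significant change. Its immunoblots found less Nrf2 protein in the nuclear fraction of RS cells. The higher one was Ero1a, an oxidase of the endoplasmic reticulum, at 0.21 (adjusted p = 0.0307).

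In the other branches of the unfolded protein response more genes were higher than lower. Of 29 genes of the Atf6 and Ire1-Xbp1 branches, 16 were higher and 3 lower, with a median of 0.28. Hyou1, a chaperone of the endoplasmic reticulum, gave 1.30 (adjusted p = 2.02e-06), Creld2, a stress-induced protein of the same compartment, 1.00 (adjusted p = 2.61e-07), and Selenos, of the degradation machinery, 0.66 (adjusted p = 5.27e-05), besides Dnajc3. The lower ones were Hsp90b1 (Grp94) at -0.37 (adjusted p = 5.09e-05), Derl2 at -0.34 (adjusted p = 0.00702) and Syvn1 at -0.26 (adjusted p = 0.00161), the last 2 parts of the degradation machinery.

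Of 22 genes around mTORC1 and the sestrins, 5 were higher and 5 lower, with a median of -0.03. Sik1, a kinase of the AMPK family, gave 0.44 (adjusted p = 0.00331), Mtor 0.38 (adjusted p = 0.00445), Deptor, an inhibitor of mTOR, 0.36 (adjusted p = 3.17e-04) and Rheb, its activator, 0.25 (adjusted p = 0.00125). Both catalytic subunits of AMPK were lower, Prkaa2 at -0.63 (adjusted p = 5.24e-04) and Prkaa1 at -0.57 (adjusted p = 1.79e-05), by their brightest probe sets, as were Sesn1 at -0.36 (adjusted p = 0.00479) and Tsc2, an inhibitor of Rheb, at -0.35 (adjusted p = 5.39e-04). A dim probe set of Prkaa1 was called higher at 0.62 (adjusted p = 0.0287), so the probe sets of that gene disagree.

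Among 17 measured relatives of the members, 4 were higher and 5 lower, with a median of -0.04. Creb3l1 (Oasis), a membrane-bound relative of Atf6, fell from 2690 ± 167 to 304 ± 42.2 (SD, n = 6 each), a log2 difference of -3.07 (adjusted p = 1.17e-10), more than any member. Crem gave -0.63 (adjusted p = 1.19e-04). Higher were Atf2 at 1.06 (adjusted p = 1.07e-04), Trib2 at 0.88 (adjusted p = 6.61e-06), Chac2, which is present without stress, at 0.62 (adjusted p = 5.86e-04), and Ppp1r15b, the constitutive partner of protein phosphatase 1, at 0.27 (adjusted p = 7.02e-04). Trib2 was thus higher in RS cells, where 2 of 3 Trib3 probe sets were lower, and Ppp1r15b was higher where Ppp1r15a was not called.

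**Figure D5:**
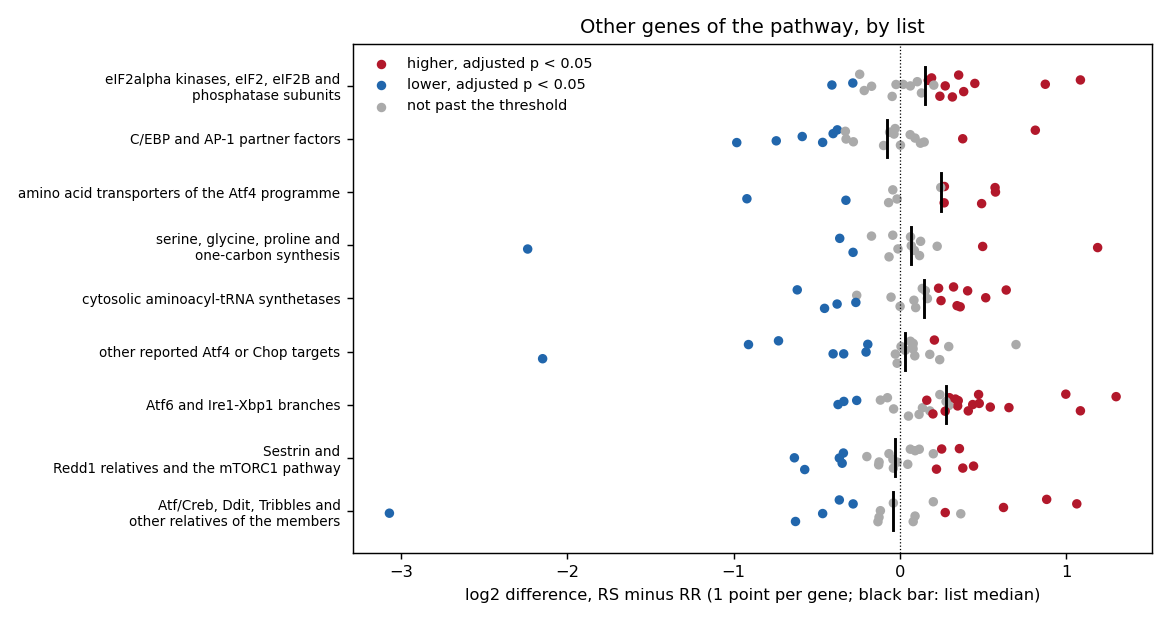
Log2 difference, RS minus RR, of each measured gene of the 9 pathway lists, red where called higher, blue where called lower and grey where not called, with the list's median as a black bar. Medians run from -0.08 for the C/EBP and AP-1 list to 0.28 for the Atf6 and Ire1-Xbp1 branches.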

How the data were processed

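Total RNA of 6 RR and 6 RS samples was amplified, labelled with biotin and hybridized to 1 array each. The authors deposited linear signal intensities per probe set, made with GCOS 1.4 by the submitters' processing notes. Every array had a 2% trimmed mean of 250.07, a scaling that hides any change in total mRNA. The study's Methods describe log2 values of robust multi-chip averaging, and these are not those. Signals were taken as log2(signal + 16), quantile normalized and fitted with limma (version 3.58.1, R 4.3.3), cell line being the only term, with Benjamini-Hochberg adjustment over 31099 probe sets, dim ones included. Precision is limited by the number of arrays. In a simulation with 6 arrays per line and 31099 probe sets, limma recovered 79 of 100 changed 1.5-fold and 91 of 100 changed 2-fold. There were 10 false calls among 30899 unchanged. Far fewer probe sets were changed there than the 9860 called in the data, so these shares are not rates for the data. Recovery was not split by signal, so it says nothing of dim probe sets. Single probe sets and correlations used exact permutation tests in SciPy (version 1.17.1). Symbols come from the platform annotation, in which 20832 probe sets have 1 symbol, 436 have several and 9831 have none. Named were all 10 members with every probe set, up to 4 called genes of largest difference in each direction per list, and the 10 genes most like Ddit3. Gene spans come from RefSeq on GRCr8. Genes singled out beyond this, which are Slc16a7, Nup62 and those shown with the element, were picked after their values were seen. The members and lists were chosen with earlier results of these data known. The alternatives were other centring and scaling, pseudocounts of 1 and 64, and a mean signal of at least 50. Others left out probe sets ending in _x_at, _s_at or _a_at, or left out each array. Further ones were a replicate block, an intensity trend, array weights, a 1.5-fold threshold and another probe set per gene. Detection calls were not used here, so no probe set is called absent.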

Additional observations from a re-analysis of the deposited data

Results flagged for a closer look

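Among the 26 groups of 6 arrays (13 probe sets in 2 lines), 3 held an array far from the rest by Dixon's criterion, where chance gives about 1 in 20 groups. Ddit3 was 231 in RS replicate 4, where the nearest of the other RS arrays was 118. Without that array the log2 difference of Ddit3 was -2.10 in place of -1.93. Chac1 was 1240.5 in RR replicate 6, where the nearest RR array was 863. Sesn2 on 1391607_at was 1083 in RS replicate 2, where the nearest RS array was 785. That array also had the high 3' to 5' ratio of beta-actin, 8.28, whose part in the Sesn2 value was not tested.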

How the results depend on the processing

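Of the 13 member probe sets, 5 were called, and 5 were called under other centring, the deposited scaling, both other pseudocounts, an intensity trend, array weights and the 1.5-fold threshold. With a mean signal of at least 50 there were 7, Trib3 1386321_s_at and Sesn2 1391607_at being added at an adjusted p of 0.0441 each. Without probe sets ending in _x_at, _s_at or _a_at there were 3 of 10, since the Ddit3 and 2 of the 3 Trib3 probe sets are then left out. Leaving out 1 array gave 5 to 6 calls. With the replicate block there were 7, with Trib3 1386321_s_at at an adjusted p of 0.0437 and Sesn2 1396901_at at 0.0497. The labels say that passages were collected in pairs but not that the number marks the pair. Over all probe sets, deviations of same-numbered arrays correlated at -0.06 to 0.08. Only 2 of 6 RR and 1 of 6 RS arrays correlated best with their own number, so the numbers were not taken as pairs. For the members, the block lowered the SE from 0.20 to 0.11 for Ddit3 and from 0.21 to 0.13 for Chac1. The SE was smaller with the block for every member probe set except that of Asns (0.055 without, 0.064 with). Whether the numbers mark pairs was not tested on the members alone. The lists had 85 calls, 77 to 87 with 1 array left out, 82 with the replicate block and 23 with the 1.5-fold threshold. The whole array had 9860, 9162 to 10010 with 1 array left out, 9204 with the replicate block and 3775 with the 1.5-fold threshold. The 1.5-fold threshold keeps fewer genes by construction. Genes with small differences changed sign: with 1 array left out, Atf3 ranged from -0.11 to 0.021, Ppp1r15a from -0.13 to 0.071 and Ddit4 from -0.080 to 0.15, and with array weights Ddit4 was -0.012. The cause was not tested. Of the relations of Ddit3 with other members, 0 passed under any setting, where the lowest unadjusted exact p was 0.0292. Without the 2 farthest arrays only r was computed. Dim probe sets, such as those of Atf3 and Sesn2 1396901_at, limit what can be seen, since the pseudocount shrinks their differences.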
